A study of Mus musculus with 10 samples.

Results

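The comparison described here set retinas of light-exposed mice with the juvenile neuronal ceroid lipofuscinosis mutation Cln3 delta ex7/8 against retinas of unexposed mice of the same genotype, across all genes on the array. It used 4 of the 10 arrays of the series, namely both arrays labelled light plus Nacl and both labelled no light, and 19505 genes were tested on them. Total retinal RNA was hybridised to 1-colour Affymetrix arrays, 1 array per sample, and every value below is a log2 level as the authors deposited it or a difference between such levels. The light plus NaCl mice were dark-adapted for 16 h, exposed to white light, and injected into the abdomen with 0.9% NaCl as the vehicle for a drug arm. The protocol gives low light, 10000 lux for 30 min, for the drug arm and its vehicle, whereas the treatment label of these arrays names no dose. The no light mice carried the same mutation and were neither exposed nor, as far as the labels go, injected. All 4 mice had a genomic deletion of exons 7 and 8 of *Cln3* in every cell, and the methods give their age as 8 to 10 weeks and both sexes as used. They also state that the strain carries a variant of *Rpe65* that raises sensitivity to light. The other 6 arrays are light-exposed Cln3 delta ex7/8 mice given minocycline, light-exposed wild-type mice and unexposed wild-type mice, with 2 arrays each, and they enter only where named. The minocycline dose was 45 mg/kg, and the wild-type mice are labelled Balb/c, while the methods describe wild-type littermates. The time between exposure and sampling was not stated.

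CLN3 is a membrane protein of lysosomes and late endosomes, and its loss causes a childhood disease in which vision fails early. Bright light bleaches rhodopsin in rods faster than it can be regenerated, and photoreceptors of susceptible mice then lose their outer segments and die. The resident microglia and the Müller glia that span the retina react to such damage. Type I interferon acts on nearly every cell: its receptor activates the kinases JAK1 and TYK2, and STAT2 and IRF9 then act at an interferon-stimulated response element in front of the genes that make up the antiviral response.

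Several facts about the 4 arrays bear on everything that follows. Transcripts of the Y chromosome separated the groups: *Eif2s3y* stood at 12.63 and 12.58 on the light plus NaCl arrays, against 3.04 and 2.79 on the no light arrays, and *Uty* and *Kdm5d* showed the same split. The labels give no sex for single mice, and by these transcripts the exposed pair was male and the unexposed pair female, so light, injection and sex cannot be told apart in this comparison. When Y-linked transcripts entered the fit as a covariate, estimated from the pair of minocycline arrays that differ in them, limma called 0 genes in either direction, with 1253 higher and 1797 lower at an unadjusted p under 0.05. That pair also differed in pigment epithelium RNA, with means of 9.28 on array 1 and 11.50 on array 2 over 16 genes. Because the covariate rests on this pair alone and adds its spread to every difference, the loss of calls cannot be assigned to sex. On the whole Y chromosome 3 of 32 genes tested were called higher, and on the X chromosome 43 of 798 were called higher and 104 lower. Of all 19505 genes 6.57% were called higher and 11% lower, and the X chromosome lay near both shares. No light array 1 held skeletal muscle RNA, with a mean level of 8.41 over 30 muscle genes, against 5.94 on no light array 2 and 6.03 and 5.91 on the light plus NaCl arrays. Lens crystallin RNA was highest on light plus NaCl array 1, where *Cryaa* stood at 13.35, against 9.31 on array 2 and 8.64 and 7.03 on the no light arrays. The spread of all log2 values was narrower on the light plus NaCl arrays, with an SD of 3.25 and 3.26 over clusters, than on the no light arrays, with 3.39 and 3.37. The tissue label held on all 4 arrays: the rod transducin gene *Gnat1* read 19.21 and 19.14 with light and 19.28 and 19.21 without, near the top of the scale at 19.5.

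**Figure D1:**
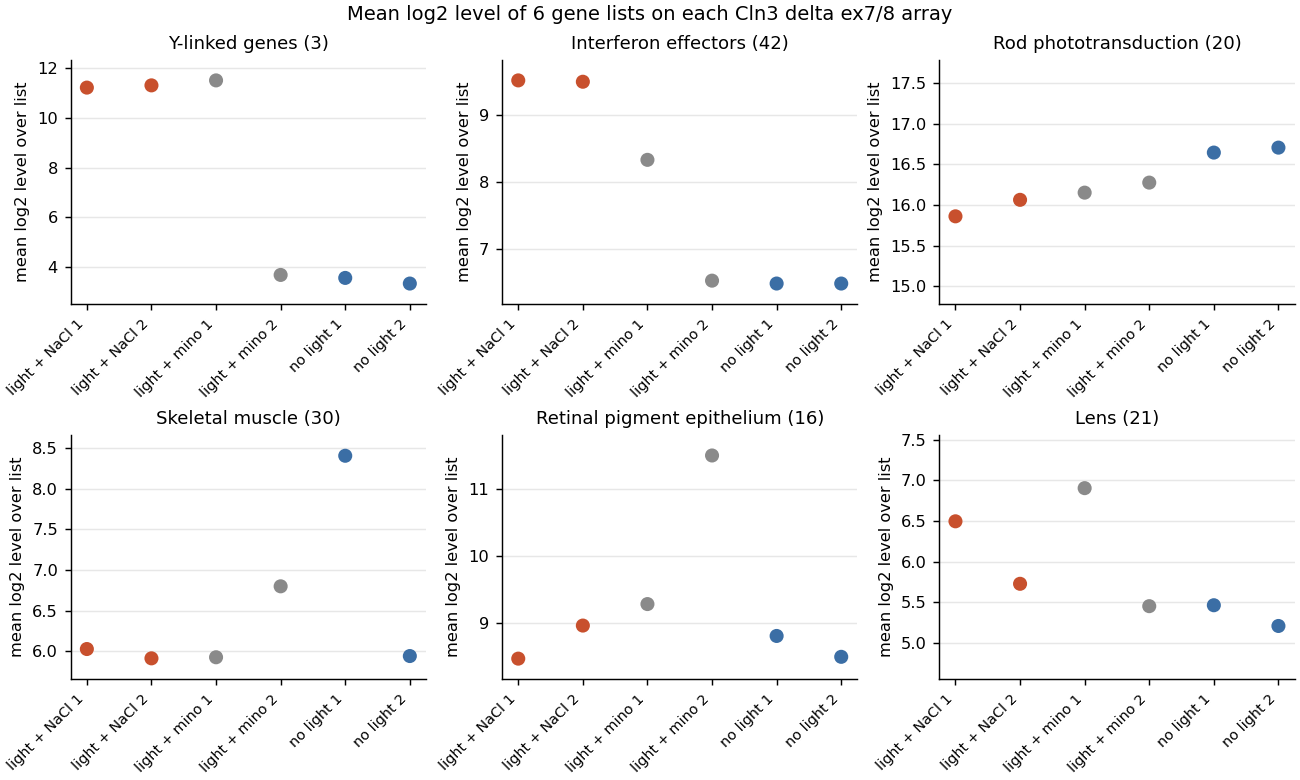
Each dot is the mean log2 level of a gene list on 1 Cln3 delta ex7/8 array, with light plus NaCl arrays on the left, light plus minocycline arrays in grey and no light arrays on the right; the number of genes is given above each panel and the vertical scales differ. Y-linked genes were high on 3 arrays (11.23, 11.32 and 11.52) and low on the other 3, muscle genes were highest on no light array 1 (8.41), and interferon effectors stood at 9.51 and 9.49 on the light plus NaCl arrays against 6.48 on both no light arrays.

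Of the 19505 genes, 1282 were called higher in light plus NaCl retinas, 6.57% of all tested, and 2152 were called lower, 11% of all tested (limma with Benjamini-Hochberg adjustment, threshold 0.05). With the arrays quantile-normalized the split was more even, with 1341 higher and 1444 lower. The shares of 6.57% and 11% are the background against which the lists below are read, though the share called lower grew with level on the no light arrays. The falls were more numerous and the rises larger: 73 genes called higher differed at least 8-fold, and 2 genes called lower did. At the threshold named in the methods, a log2 difference of at least 2 with an unadjusted limma p under 0.05, 165 genes (0.846%) were higher and 41 (0.21%) lower. Both light plus NaCl arrays lay above both no light arrays for 30.0% of all genes and below them for 32.7%, so that separation of the 4 arrays is no rarity in these data. Direction followed level: the median difference was 0.14 in the fifth of genes with the lowest mean level and −0.33 in the fifth with the highest, where 988 of 3901 genes were called lower and 258 higher. With any 1 of the 4 arrays left out, between 366 and 518 genes were called higher and between 504 and 851 lower.

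**Figure D2:**
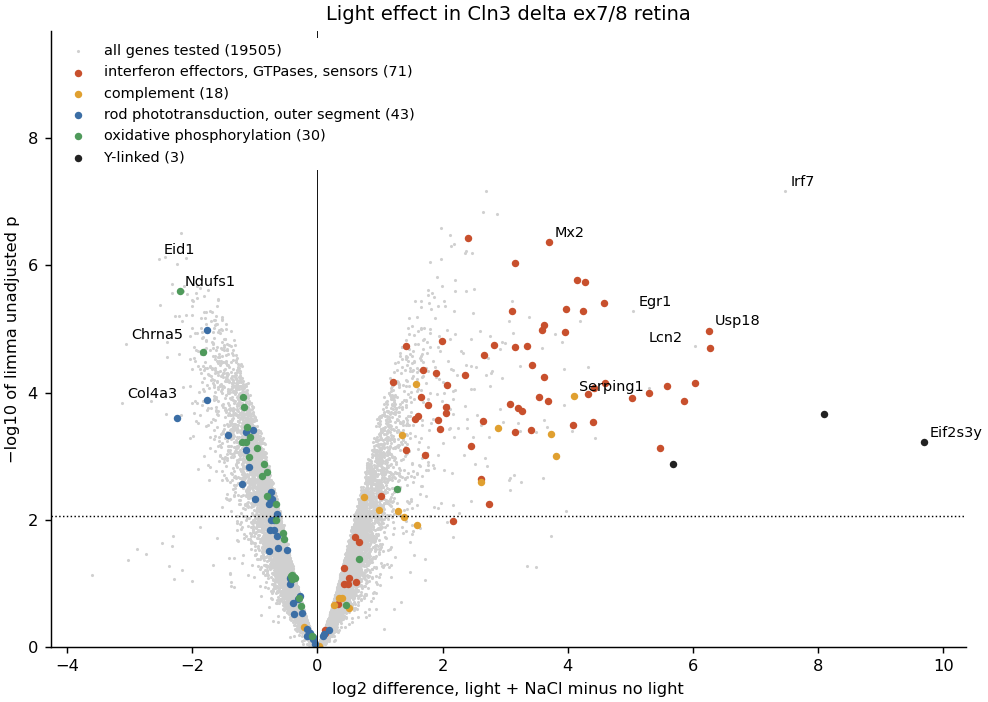
Each point is 1 gene, with the log2 difference of light plus NaCl minus no light on the x axis and −log10 of the unadjusted limma p on the y axis; the dotted line marks the level at which the adjusted p reached 0.05. Interferon effectors reach differences of over 6, complement genes lie on the right, and genes of rods and of oxidative phosphorylation lie on the left with smaller differences.

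The rise was led by the interferon response. Among the 15 largest rises, 11 belonged to the interferon lists, and all interferon lists together held 100 measured genes, of which 66 were called higher and 1 lower. Apart from Y-linked genes the largest was *Irf7*, the transcription factor that amplifies type I interferon: it stood at 13.82 and 13.96 on the light plus NaCl arrays, against 6.32 and 6.51 on the no light arrays. That is a difference of 7.47 ± 0.62 (SE) or 178-fold, with a limma adjusted p of 0.000661, and both groups were tight and far apart. With Y-linked transcripts as a covariate the difference was 5.13 ± 0.67 (SE; limma adjusted p = 0.0592).

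Of 42 measured effectors, the proteins that block viral entry, translation and release, 36 were called higher and 0 lower, with a median difference of 2.96. *Ifit1*, which binds foreign RNA caps, read 11.74 and 12.57 in light plus NaCl retinas, against 5.76 and 6.0 in no light retinas (77.4-fold, limma adjusted p = 0.00212). *Usp18*, the protease that strips ISG15 from proteins and dampens the interferon receptor, read 12.55 and 12.69, against 6.70 and 6.03 without light (76.4-fold). *Ifitm3*, which stops viruses from fusing with endosomes, read 14.21 and 14.00, against 8.50 and 7.63 (65.8-fold). In all 3 genes the groups were separated by over 5 log2 units. *Ifit3*, *Ifit3b*, *Oasl2* and *Ly6e* rose as well, by 5.58, 5.30, 5.47 and 4.58, of which *Oasl2* turned to −0.15 with Y-linked transcripts as a covariate, and *Ube2l6*, which conjugates ISG15 to its targets, by 5.29. *Bst2*, the tether of budding viruses, was uneven within the exposed pair, with 12.95 and 9.02 in light plus NaCl retinas, against 5.75 and 6.17 in no light retinas. Among the effectors with smaller rises, *Mx1* read 6.22 and 6.64, against 4.59 and 4.96, *Oas2* 4.67 and 4.71, against 3.49 and 3.47, and *Isg15* 7.79 and 7.17, against 5.48 and 6.05. All 3 passed the test and none of them overlapped between groups. Leaving out 1 of the 4 arrays left between 26 and 33 of the effectors called.

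Interferon-inducible GTPases, which attack the membranes of vacuoles that hold pathogens, behaved alike. Of 12 measured, 11 were called higher and 0 lower, with a median difference of 2.95. *Gbp3* read 11.60 and 12.18 with light and 7.50 and 7.09 without, a difference of 4.59 ± 0.76 (SE; limma adjusted p = 0.00329). *Irgm1* rose by 4.42, *Tgtp2* by 3.62, with 7.73 and 9.33 on the exposed arrays, and *Iigp1* by 2.40.

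The receptor and its signal chain moved less evenly. Among 19 receptors, STATs and IRFs, 5 were called higher and 1 lower, and the median difference was 0.21. Those that rose were *Irf7*, *Irf9* (10.78 and 10.30 with light, 6.64 and 6.61 without), *Stat2* (12.72 and 12.62, against 9.60 and 9.50), *Tyk2* and the receptor chain *Ifnar2*. The exception was the receptor kinase gene *Jak1*, which fell to 9.76 and 9.63 in light plus NaCl retinas, against 11.02 and 11.07 in no light retinas, a difference of −1.35 ± 0.20 (SE; limma adjusted p = 0.00229). The transcription factor partner IRF9 and the receptor kinase JAK1 thus moved in opposite directions, each beyond the spread between arrays. Leaving out 1 array, 3 or 4 genes of this list were called higher.

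The genes of the interferons themselves were, with 1 exception, not called. *Ifnb1*, the first interferon made after sensing of nucleic acid, read 5.61 and 5.58 with light, against 5.66 and 5.60 without, and the groups overlapped. Both groups lay below the median of the arrays, which was between 7.13 and 7.25. Of 10 measured ligands 1 was called, *Ifna2*, at 5.41 and 5.80 in light plus NaCl retinas, against 4.60 and 4.91 in no light retinas, with a limma adjusted p of 0.0449, and it was lost whenever 1 of the 4 arrays was left out.

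Cytosolic sensors of nucleic acid, which trigger interferon production and are themselves interferon-induced, rose in 13 of 17 cases, with 0 lower and a median difference of 2.67. RIG-I (*Ddx58*) read 10.78 and 11.43 with light and 7.83 and 8.05 without, and MDA5 (*Ifih1*) 10.15 and 10.32, against 7.68 and 7.46. *Ifi211*, of the family that binds DNA, showed the largest difference among sensors, 5.86 ± 1.05 (SE). *Eif2ak2*, the kinase PKR that shuts down translation on double-stranded RNA, rose by 3.44, and *Zbp1*, which senses Z-form nucleic acid and drives necroptosis, rose at a dim level, with 5.43 and 5.75 on the light plus NaCl arrays and 4.10 and 4.26 on the no light arrays. With 1 array left out, 9 to 12 sensors were called.

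Several of these genes hold the core of the interferon-stimulated response element before their start. The following windows from RefSeq (build GRCm38.p6) are 100 bases each from the 250 bases before the gene's start, read 5′ to 3′ along the gene's strand, with every match to the core GAAANNGAAA on either strand in capitals (TTTCNNTTTC on the other strand). They are shown because they belong to called genes of the effector, GTPase and antigen presentation lists and show the core once, paired or overlapping. *Ifit1* (chr19:34640759-34640858) and *Ifit3* (chr19:34583362-34583461) lie on the plus strand, *Gbp3* at chr3:142559944-142560043 (plus), *Isg15* at chr4:156200830-156200929 (minus) and *B2m* at chr2:122147503-122147602 (plus).
Ifit1: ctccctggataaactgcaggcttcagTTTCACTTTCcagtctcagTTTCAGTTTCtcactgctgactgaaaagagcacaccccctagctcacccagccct
Ifit3: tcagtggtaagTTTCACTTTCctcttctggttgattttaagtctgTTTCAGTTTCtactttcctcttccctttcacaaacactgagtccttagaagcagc
Gbp3: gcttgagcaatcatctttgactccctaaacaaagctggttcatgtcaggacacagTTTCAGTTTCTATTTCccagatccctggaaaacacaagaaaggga
Isg15: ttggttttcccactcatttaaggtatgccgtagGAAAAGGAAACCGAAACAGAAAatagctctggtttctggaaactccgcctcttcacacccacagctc
B2m: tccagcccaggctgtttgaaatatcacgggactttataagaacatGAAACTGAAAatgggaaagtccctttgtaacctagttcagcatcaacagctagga

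Windows of 300 bases around the start (250 before, 50 after) were found for 15691 of the genes tested, and 618 of these, 3.94%, held at least 1 such core. Among interferon effectors with a window the core was present in 14 of 31, among GTPases in 7 of 7, among sensors in 7 of 13 and among MHC class I presentation genes in 5 of 15. Core and call did not always go together. Interferon ligand genes held it in 4 of 10 windows, with 1 gene called higher. MHC class II and costimulation genes held it in 0 of 5 windows, with 3 genes called higher. For the 15 largest rises it was present in 8 of 12 windows, and for the 15 largest falls in 0 of 13. Over all genes called higher the share was 9.76% and over all called lower 3.40%. A match describes the letters only, and these lists were chosen in part because their genes are known interferon targets.

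**Figure D3:**
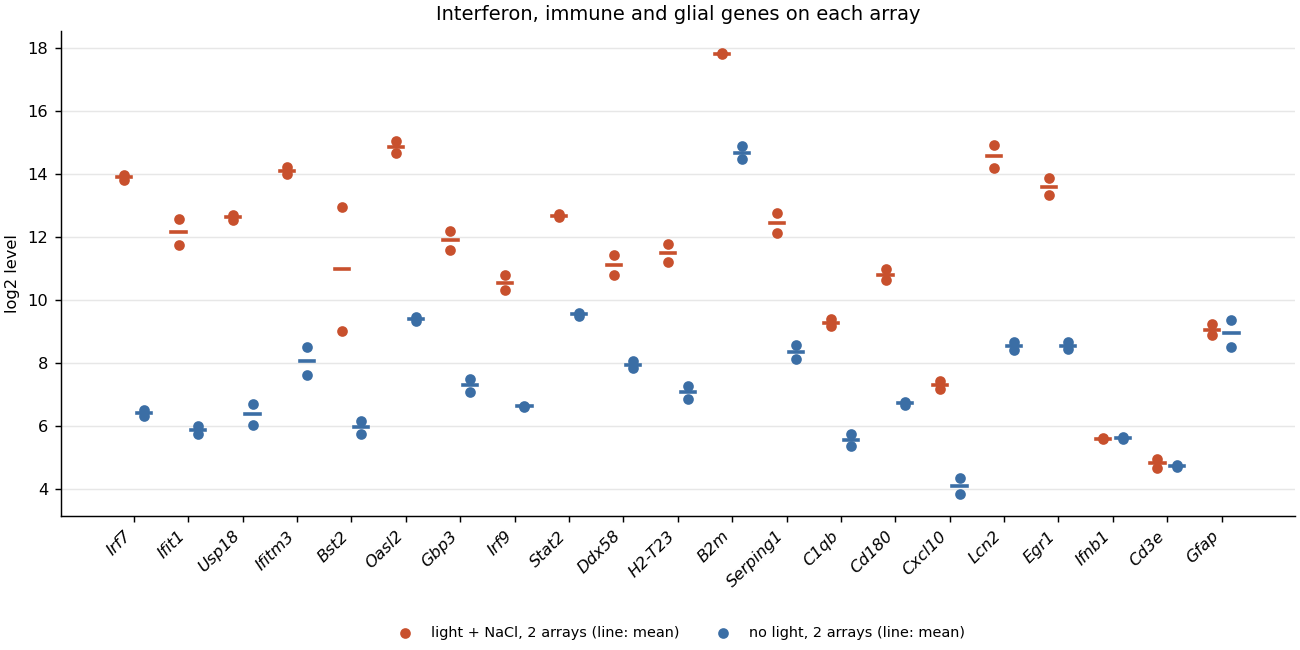
Log2 level of 21 genes on the 2 light plus NaCl arrays (left of each pair, orange) and the 2 no light arrays (right of each pair, blue), with each dot an array and each line a group mean. *Irf7*, *Ifit1*, *Usp18*, *Lcn2* and *Egr1* lie over 4 log2 units higher with light, *Bst2* is split within the exposed pair (12.95 and 9.02), and *Ifnb1*, *Cd3e* and *Gfap* overlap between groups.

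Antigen presentation by MHC class I, the route by which cells show fragments of their own proteins to CD8 T cells, rose in 14 of 18 genes with 0 lower and a median difference of 1.77. The light chain gene *B2m* read 17.83 and 17.81 with light, against 14.89 and 14.46 without (8.85-fold, limma adjusted p = 0.0196). The non-classical heavy chain *H2-T23* read 11.79 and 11.20, against 7.27 and 6.86, the peptide pump *Tap1* rose by 3.38 and the immunoproteasome subunit *Psmb8* by 2.72. Once 1 of the 4 arrays was left out, 5 or 6 genes of this list were called. Of the 9 class II and costimulation genes, 3 rose and 0 fell: *H2-Aa*, *H2-Ab1* and *H2-Eb1*, by 2.04, 1.81 and 1.25.

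Complement, the blood cascade that in the retina is also made by microglia and Müller glia, rose in 10 of 18 genes and fell in 0, with a median difference of 1.32. *Serping1*, which inhibits the first protease of the classical pathway, read 12.77 and 12.13 in light plus NaCl retinas, against 8.57 and 8.13 in no light retinas (17.2-fold). *C1qb* and *C1qc*, which recognise tagged cells and synapses, rose by 3.73 and 3.82, while *C1qa* had a difference of 1.59 and missed the threshold (limma adjusted p = 0.0613). *C4b*, which is deposited on targets, rose by 2.62 and the receptor *C3ar1* by 2.88. Between 2 and 5 complement genes were called when 1 array was left out.

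Markers of microglia were higher with light, though not all of them. In bulk retina more microglia and more RNA per microglial cell cannot be told apart, and the same holds for every cell type below. Of 15 markers of resting microglia 7 were called higher and 0 lower (median difference 0.93), and of 31 markers of reactive microglia and macrophages 12 were called higher and 0 lower (median 1.18). *Aif1*, the cytoskeletal protein IBA1, read 9.56 and 9.69 with light, against 6.17 and 6.93 without, and the chemokine receptor *Cx3cr1* 6.86 and 6.32, against 4.88 and 4.74. *P2ry12* and *Tmem119*, which microglia carry at rest, did not pass, with differences of 1.11 and 0.39 (limma adjusted p = 0.156 and 0.281). Among reactive markers the oxidase subunit *Cybb* rose by 3.62 and the Fc receptor chain *Fcer1g* by 3.67, both over 12-fold, whereas *Tspo*, the mitochondrial protein traced in imaging of inflammation, differed by 0.79 (limma adjusted p = 0.0540). Leaving out 1 array left 1 to 3 of the resting and 4 to 7 of the reactive markers called. Blood-derived cells gave little signal: of 19 markers 1 was called, *Ly6c2*, at 9.01 and 9.99 with light and 6.78 and 6.31 without, and the T cell gene *Cd3e* read 4.96 and 4.67, against 4.75 and 4.69.

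Of 31 chemokines and cytokines 6 were called higher and 0 lower, with a median of 0.40. *Cxcl10*, an interferon-induced attractant of T cells, read 7.16 and 7.44 in light plus NaCl retinas, against 4.35 and 3.85 in no light retinas (9.19-fold). *Ccl12* rose by 3.06 and *Csf1*, which maintains microglia, by 2.46. The classical inflammatory genes *Il1b* and *Tnf* were dim in both groups, below the median of the arrays. *Il1b* read 4.88 and 5.10 with light, against 4.91 and 4.78 without, and overlapped between groups. *Tnf* read 3.97 and 3.51, against 3.29 and 3.32, without overlap. *Ccl2* differed by 1.21 and did not pass (limma adjusted p = 0.0767). Among 16 Toll-like receptors and adaptors 4 rose and 0 fell: *Tlr3* and *Tlr7*, which sense RNA, by 2.97 and 3.60, and the TLR4-like *Cd180* and its partner *Ly86*, by 4.08 and 2.65. *Tlr2* differed by 0.82 (limma adjusted p = 0.235). With 1 array left out, 2 to 4 chemokines and cytokines and 1 to 3 Toll-like genes were called.

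Müller glia and astrocytes showed an uneven reaction. Of 27 genes of reactive glia 9 were called higher and 0 lower (median 0.44), and 2 to 4 with 1 array left out. *Lcn2*, the iron carrier lipocalin 2, stood at 14.92 and 14.20 with light, against 8.65 and 8.40 without, a difference of 6.04 ± 0.86 (SE; limma adjusted p = 0.00210). The calcium-binding *S100a11* rose by 2.53, the NF-kappaB cofactor *Bcl3* by 2.40, the matrix receptor *Cd44* by 1.76 and the protease inhibitor *Timp1* by 1.75. *Gfap*, the intermediate filament by which gliosis is usually scored, read 9.24 and 8.88 with light, against 9.37 and 8.51 without, and *Vim* 14.38 and 13.77, against 14.37 and 13.90. Both overlapped between groups, while *Lcn2* did not come near. Among 16 genes of resting Müller glia 3 were called lower and 1 higher. The retinoid carrier *Rlbp1* fell by 1.08 and the carbonic anhydrase *Car2* by 0.68, and 1 or 2 falls were called with 1 array left out.

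Photoreceptor transcripts were lower with light, by less than the immune genes were higher. Of 20 measured genes of rod phototransduction 8 were called lower and 0 higher (median difference −0.66), and of 23 genes of the outer segment and cilium 8 were called lower and 0 higher (median −0.65). For comparison, the fifth of all genes with the highest levels on the no light arrays had a median of −0.33. *Guca1b*, which restores cyclic GMP synthesis when calcium falls, read 14.94 and 14.99 in light plus NaCl retinas, against 16.87 and 16.60 in no light retinas, a difference of −1.77 ± 0.24 (SE; limma adjusted p = 0.00175). *Cngb1*, the regulatory subunit of the rod channel, read 11.49 and 11.46, against 13.57 and 13.86, and fell the most of the list. The exchanger *Slc24a1* and the rhodopsin kinase *Grk1* fell by 1.43 and 1.14. *Pde6b* missed the threshold with a difference of −0.75 (limma adjusted p = 0.0708), and *Gnat1*, at the top of the scale, overlapped between groups.

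Among outer segment proteins, the disc rim partners *Rom1* and *Prph2* fell by 1.15 and 0.74. *Fscn2*, which bundles actin where discs form, fell to 9.06 and 8.97 in light plus NaCl retinas, against 10.71 and 10.85 in no light retinas, and *Rdh12*, which clears toxic retinal, by 1.02. Of the transcription factors that drive these genes, *Nrl* read 13.71 and 14.19, against 15.61 and 15.47 (a difference of −1.59 ± 0.28, SE), while *Crx* differed by −0.34 and was not called. Cones were divided: 5 of 18 genes fell and 2 rose. The cone arrestin *Arr3* fell by 1.30 and the transducin *Gnat2* by 0.72, *Gnb3* and *Slc24a2* rose by 1.04 and 0.98, and both cone opsins, *Opn1sw* and *Opn1mw*, were not called, with differences of −0.09 and 0.27. With 1 array left out, 2 or 3 phototransduction genes, 1 to 3 outer segment genes and 0 to 2 cone genes were called lower, and after quantile normalization 5 phototransduction and 3 outer segment genes. In the windows of 300 bases the CRX site TAATCC, searched on both strands, was present for 8 of 14 phototransduction genes and 4 of 21 outer segment genes. It was present for 7.54% of all genes with a window, 8.11% of those called lower and 7.59% of those called higher. Lists that did not fall held it too, with 6 of 14 pigment epithelium, 6 of 22 reactive microglia and 6 of 31 interferon effector genes.

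**Figure D4:**
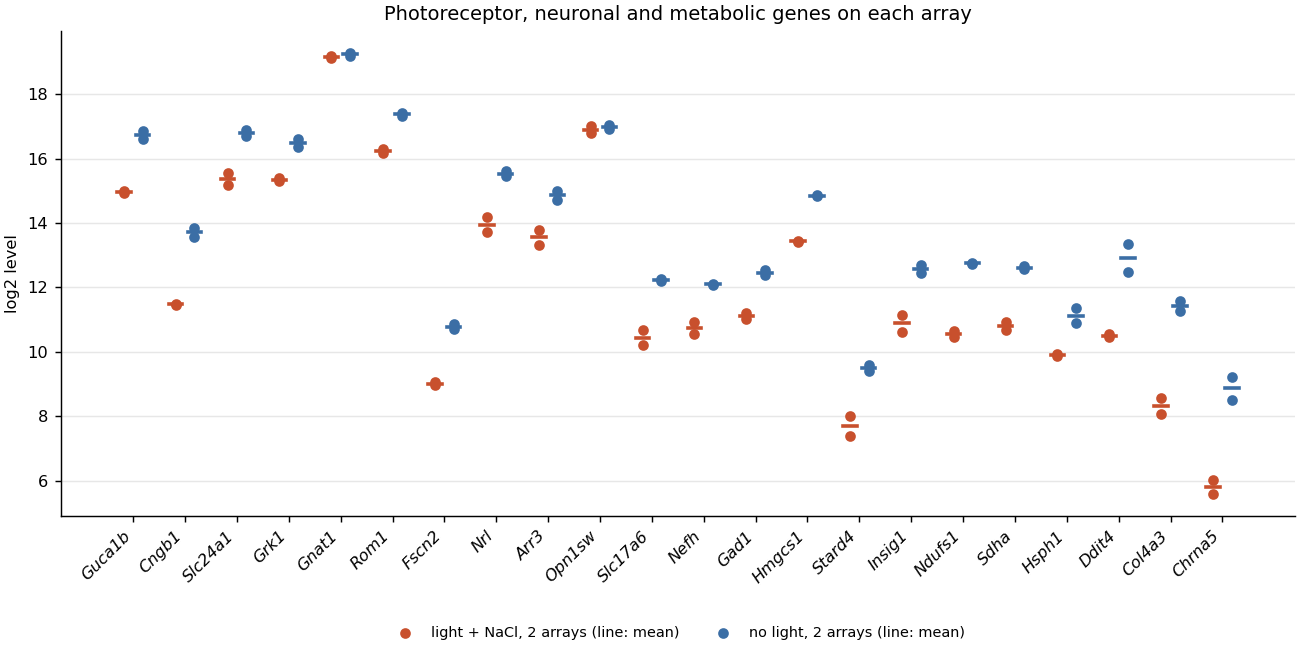
Log2 level of 22 photoreceptor, neuronal and metabolic genes on the 2 light plus NaCl arrays (left of each pair, orange) and the 2 no light arrays (right of each pair, blue), with each dot an array and each line a group mean. All but *Gnat1* and *Opn1sw* lie lower with light without overlap, and the widest gaps are those of *Col4a3* (−3.12) and *Chrna5* (−3.06).

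In the inner retina the ganglion cell list fell most. Of its 19 genes 8 were called lower and 0 higher, with a median of −0.71. *Slc17a6*, which loads glutamate into vesicles, read 10.21 and 10.67 in light plus NaCl retinas, against 12.19 and 12.25 in no light retinas (a difference of −1.78 ± 0.25, SE). The neurofilaments *Nefl*, *Nefm* and *Nefh* fell by 0.92, 1.15 and 1.34, whereas *Rbpms*, a marker of the cell bodies, read 10.96 and 10.52, against 10.83 and 10.27, and overlapped. Of 19 amacrine and horizontal cell genes 2 fell (10.5%) and 1 rose (5.26%), near the 11% and 6.57% of all genes, and the list median was 0.015. Those that fell were the enzymes of GABA synthesis, *Gad1* (11.20 and 11.03 with light, 12.53 and 12.40 without) and *Gad2*. Of 17 bipolar cell genes 3 rose and 1 fell, with a list median of 0.09, and those that rose included *Grm6*, the glutamate receptor of ON bipolar cells, and *Trpm1*, the channel it controls, by 1.05 and 1.00. Once 1 array was left out, 2 or 3 ganglion cell genes, 0 or 1 amacrine genes and none of the bipolar genes that rose were called. After quantile normalization 4 ganglion cell genes were called lower.

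Receptor subunits split within families. Of 19 nicotinic and glutamate receptor genes 5 rose and 2 fell. *Chrna5*, an accessory nicotinic subunit, was among the largest falls of all genes, at 5.59 and 6.02 with light, against 9.21 and 8.51 without, a difference of −3.06 ± 0.43 (SE; limma adjusted p = 0.00208). *Chrnb3* fell by 1.01, while *Chrna4* and *Chrnb4* rose by 1.01 and 1.50 and the NMDA receptor subunit *Grin2b* by 1.51. Dropping 1 array left 1 or 2 genes of the list called higher and 1 lower.

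Genes of mitochondrial respiration were lower. Of 30 subunits of the oxidative phosphorylation complexes 15 were called lower and 1 higher, with a median of −0.66, and 4 to 8 were called lower with 1 array left out. *Ndufs1*, the core subunit of complex I, read 10.45 and 10.66 in light plus NaCl retinas, against 12.77 and 12.74 in no light retinas, a difference of −2.20 ± 0.26 (SE; limma adjusted p = 0.00126). *Sdha* of complex II fell by 1.82, *Uqcrc2* of complex III by 1.18, *Cox7a2* of complex IV by 1.12 and *Atp5c1* of the ATP synthase by 1.08, so all 5 complexes had members that fell. *Atp5b* differed by −0.36 and *Cox4i1* by −0.41 without passing, and *Atp5g1* rose by 1.28.

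Cholesterol synthesis, in which photoreceptors and Müller glia both take part, was lower with light. Of 19 genes of the pathway and its SREBP2 targets 10 were called lower and 0 higher, with a median of −0.74. *Hmgcs1*, at the entry of the pathway, read 13.41 and 13.45 with light, against 14.87 and 14.83 without. *Sqle* and *Msmo1*, which act later, each fell by 1.19, and *Insig1* and *Stard4*, targets of SREBP2 that hold back the pathway and carry its product, fell by 1.68 and 1.81. All 5 showed no overlap between groups. With 1 array left out, 3 genes were called whichever of the 4 it was, and after quantile normalization 5. Among 16 apolipoprotein and efflux genes 4 rose and 1 fell. *Apod*, a lipid carrier of stressed glia, read 10.80 and 9.75, against 8.24 and 6.80, and *Abcg1*, which exports sterols, fell by 0.80. Dropping 1 array left 1 gene of this list called higher and 0 lower.

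**Figure D5:**
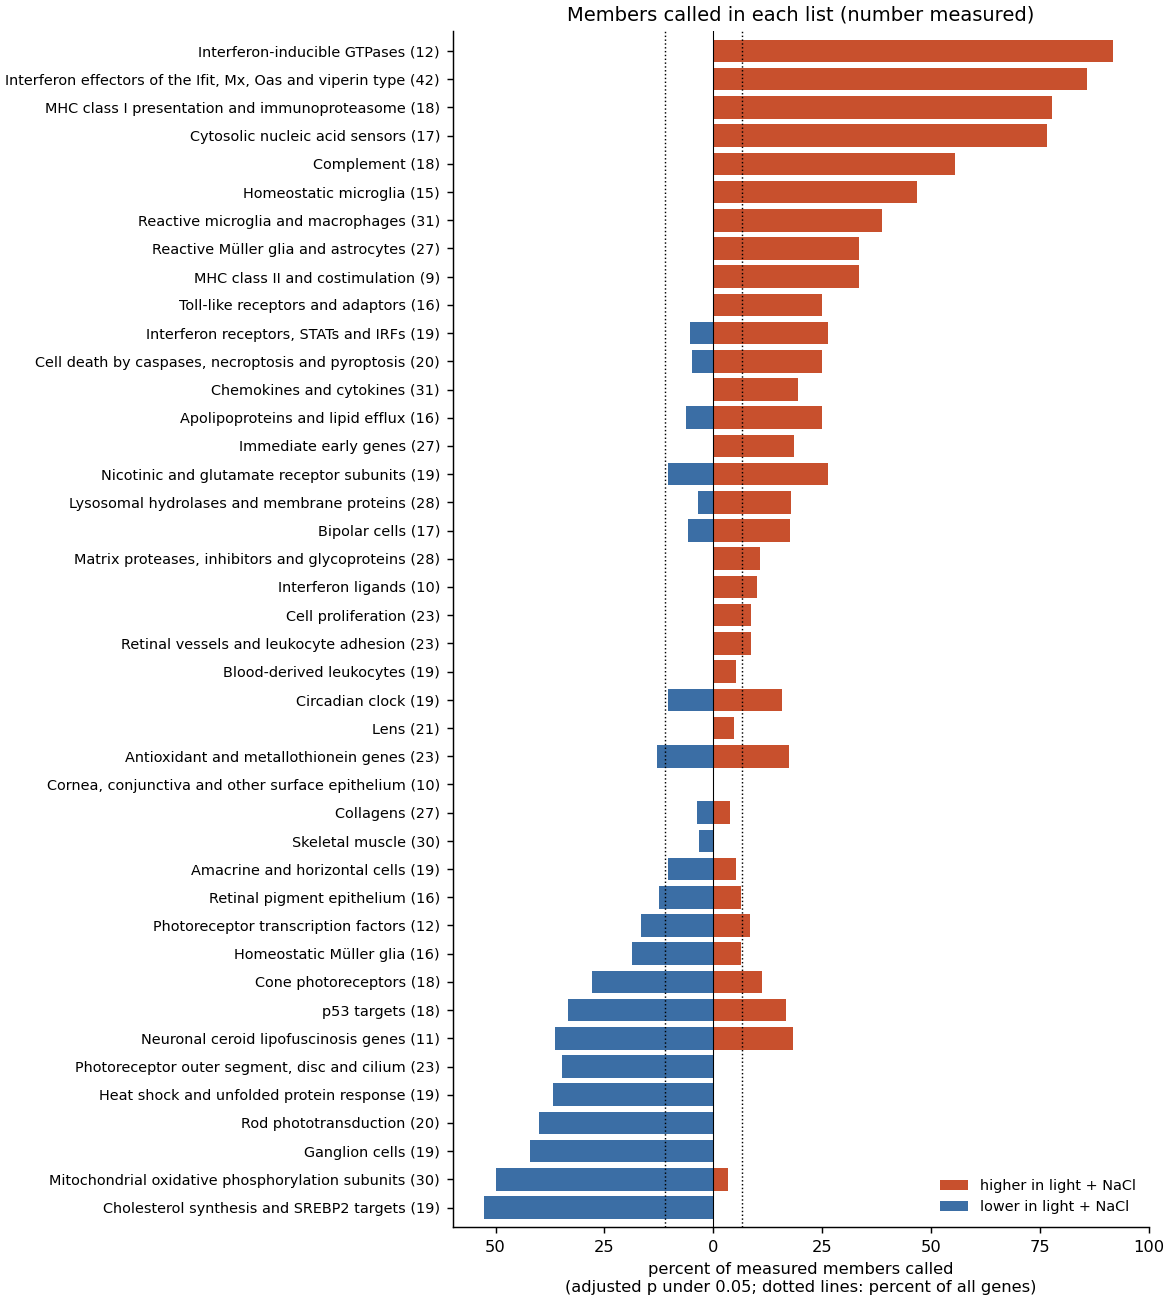
Percent of the measured members of each list that were called higher (orange, to the right) or lower (blue, to the left) in light plus NaCl retinas, for the 42 lists with at least 9 measured members. The dotted lines mark the share of all genes called higher (6.57%) and lower (11%). Interferon effectors, GTPases, nucleic acid sensors, MHC class I presentation and complement extend farthest to the right, cholesterol synthesis and oxidative phosphorylation farthest to the left.

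Stress responses did not move as a block. Of 19 heat shock and unfolded protein genes 7 were called lower and 0 higher. *Hspa1a*, the inducible HSP70, read 9.28 and 9.55 in light plus NaCl retinas, against 10.92 and 10.72 in no light retinas, and the endoplasmic reticulum chaperone *Hspa5* and the cochaperone *Hsph1* fell by 0.93 and 1.22. Of 18 p53 targets 3 rose and 6 fell: the cell cycle inhibitor *Cdkn1a* rose by 3.12 and *Gadd45b* by 1.13, whereas *Ccng1* and *Trp53inp1* fell by 0.96 and 0.90 and *Ddit4*, an inhibitor of mTORC1, by 2.40. Among 23 antioxidant genes the metallothioneins *Mt1* and *Mt2* rose by 1.20 and 2.35 and the iron oxidase *Cp* by 1.54, and the mitochondrial superoxide dismutase *Sod2* read 12.12 and 12.23, against 13.50 and 13.37. *Hmox1* was not called at 0.92 (limma adjusted p = 0.0513). Dropping 1 array left 1 to 3 heat shock genes and 2 or 3 p53 targets called lower, and 0 or 1 antioxidant genes higher. After quantile normalization 4 heat shock genes and 3 p53 targets were called lower.

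Among 27 immediate early genes 5 rose, and 1 of them far more than the rest. *Egr1*, a transcription factor that follows neuronal activity and growth signals, read 13.87 and 13.32 in light plus NaCl retinas, against 8.66 and 8.43 in no light retinas (33.1-fold, limma adjusted p = 0.00144). *Dusp1* and *Fos* rose by 1.32 and 0.91, of which *Dusp1* turned to −0.05 with Y-linked transcripts as a covariate. The list median was 0.01, and with 1 array left out 1 gene was called. Of 20 genes of cell death 5 rose and 1 fell. The initiator *Casp8* read 10.33 and 10.03, against 7.97 and 8.15, *Casp1*, *Casp4* and the necroptosis effector *Mlkl* rose by 1.45, 1.06 and 1.27, and *Casp9* of the mitochondrial route fell by 0.92. When 1 array was left out, 0 to 3 cell death genes were called higher.

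The lysosome, in which CLN3 acts, was mixed. *Cln3* itself read 10.13 and 9.46 with light and 9.14 and 9.18 without, a difference of 0.64 ± 0.30 (SE) that was not called (limma adjusted p = 0.170). Whether its probes lie in the deleted exons is unknown here, so the level checks neither genotype nor label. Of 11 measured genes of neuronal ceroid lipofuscinosis, 2 rose and 4 fell. Progranulin (*Grn*), a lysosomal protein secreted by microglia, read 13.42 and 13.07 in light plus NaCl retinas, against 11.23 and 11.10 in no light retinas, and *Cln6*, of the endoplasmic reticulum, 13.66 and 13.47, against 12.26 and 12.05. *Ppt1*, *Cln8*, *Ctsf* and *Kctd7* fell by 0.76, 1.31, 0.86 and 0.91. Whichever array was left out, 2 of these genes were called higher and 0 or 1 lower, and after quantile normalization 2 higher and 1 lower. Of 28 other lysosomal genes 5 rose and 1 fell. *Lamp2*, a membrane protein of chaperone-mediated autophagy, rose by 1.52, the dipeptidyl peptidase *Ctsc* by 1.49 and the calcium channel *Mcoln1* by 1.11, and the proton pump subunit *Atp6v1a* fell by 0.93. Without any 1 array, 1 to 3 lysosomal genes were called higher.

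The largest falls formed no common group: of 15, 4 stood in any list. *Col4a3*, a collagen of basement membranes, fell to 8.57 and 8.06 in light plus NaCl retinas, against 11.27 and 11.59 in no light retinas, a difference of −3.12 ± 0.56 (SE; limma adjusted p = 0.00470). Of 27 collagens it was the single fall, and *Col9a3*, which rose by 0.77, the single rise, lost once any 1 array was left out. *Racgap1*, a regulator of cell division, read 6.73 and 6.45, against 9.14 and 9.34. *Eid1*, an inhibitor of differentiation, read 8.30 and 8.43, against 11.12 and 10.68, and *Anp32e*, which removes the histone H2A.Z, 11.72 and 11.50, against 13.96 and 14.12. In these 4 genes the groups were apart by at least 2 log2 units. *Cirbp*, the cold-inducible RNA-binding protein, fell by 2.42, the ubiquitin ligase adaptor *Spop* by 2.40, the retinol dehydrogenase *Rdh11* by 2.33 and the telomere protein *Terf2ip* by 2.24. *Rmdn3*, *Mturn*, *Inpp5f* and *Plcxd2* fell by 2.21 to 2.52.

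The arrays outside the comparison give a reading on what else the interferon genes followed. Light plus minocycline array 1 carried Y-linked transcripts and array 2 did not, and the 42 interferon effectors averaged 8.32 on array 1 and 6.52 on array 2, with 9.51 and 9.49 on the light plus NaCl arrays and 6.48 on both no light arrays. On array 2 *Irf7* stood at 8.26, *Ifit1* at 5.55 and *Usp18* at 6.54, although that mouse had been exposed to light. The interferon effectors were thus high on the 3 Cln3 delta ex7/8 arrays with Y-linked transcripts and low on the 3 without. In wild-type mice Y-linked transcripts ran the other way, present on both no light arrays and absent on both light arrays, and the effectors averaged 7.73 and 7.40 with light and 6.46 and 6.87 without. The part of sex, minocycline and light in these levels was not tested, and with 1 exposed Cln3 delta ex7/8 array that lacks Y-linked transcripts they cannot be told apart.

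On light plus minocycline array 2 the median difference from the no light arrays was −0.29 for rod phototransduction genes, −0.50 for ganglion cell genes, −0.64 for oxidative phosphorylation and −0.58 for cholesterol synthesis. It was 0.17 for photoreceptor transcription factors and 0.05 for the interferon effectors. The corresponding medians in light plus NaCl retinas were −0.66, −0.71, −0.66 and −0.74, with −0.37 for the transcription factors and 2.96 for the effectors. Array 2 also held much retinal pigment epithelium RNA, with a mean of 11.50 over 16 genes, against 8.81 and 8.50 on the no light arrays, and the part of this in its other values was not tested. All of these comparisons share the no light arrays.

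Light-exposed wild-type retinas were set beside the mutant ones. Their labels name high light, for which the protocol gives 15000 lux for 60 min, and name no injection, so exposure and vehicle differ from those of the mutant. The wild-type mice are also labelled Balb/c, and their Y-linked transcripts ran the opposite way, absent on both light arrays and present on both no light arrays, so genotype, strain, sex and exposure cannot be told apart in what follows. The median light effect on interferon effectors was 2.96 in Cln3 delta ex7/8 retinas and 0.84 in wild-type retinas, and on complement 1.32 and 0.67. Rod phototransduction gave −0.66 in Cln3 delta ex7/8 and −0.76 in wild-type retinas, cholesterol synthesis −0.74 and −1.03, and oxidative phosphorylation −0.66 and −0.85. The difference between the genotypes' light effects was tested for each gene, and 0 genes passed after adjustment in limma in either direction, with 1203 above 0 and 967 below 0 at an unadjusted p under 0.05, 11.1% of all genes. Among the 42 interferon effectors 30 reached that unadjusted level. *Irf7* had a light effect of 7.47 in the mutant and 1.96 in the wild type, and *Egr1* of 5.05 and 0.56. A fit over only the groups of these 8 arrays called 68 genes above 0 and 11 below 0.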

How the data were processed

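Retinal RNA was measured on 10 arrays in 5 groups of 2, grouped by the labels. The authors processed them with Affymetrix Expression Console and deposited log2 values per transcript cluster. No version, algorithm or setting was given in the sources used here. The design text names the Clariom S mouse array and the methods another Affymetrix array. Of 22206 clusters 19572 carried 1 gene symbol in the platform table, and the brightest cluster per symbol was used (19505 genes), with no filter and no further normalization. Whether the 2 samples of a group came from separate cages or days is not given, so p-values measure the spread between these samples. Pearson's r over clusters between both arrays of a group ran from 0.989 to 0.994.

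Differences were tested with limma 3.58.1 (lmFit and eBayes, R 4.3.3) over all 5 groups, which share a spread, with Benjamini-Hochberg adjustment over all genes; called means an adjusted p under 0.05. Light was taken as light plus NaCl minus no light, and genotype by light as its difference from the wild type. Standard errors of the light effect had a median of 0.24, limited by 2 arrays per group. The test was checked on simulated data. Members and the 44 gene lists (918 genes, 833 measured, the others not analysed here) were chosen with earlier results of these data known. The rule for naming genes took the 15 largest rises and falls that were called without overlap, excluding Y-linked and predicted genes. It also took key members, up to 6 called members per list and direction, and genes named by the study. The rule gave 285 genes and the text names 174, so some key members and study genes, such as *Wfdc17*, are left out. Alternatives were quantile normalization, median centring, leaving out dim genes, eBayes with trend and robust, a fit of only the groups compared, every cluster, the methods' t-test, a 2-fold minimum, an adjusted p at the 4-fold threshold, Y-linked transcripts as a covariate, and leaving out each array. Sequences are from RefSeq.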

Additional observations from a re-analysis of the deposited data

Results flagged for a closer look

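In 8 genes named above all arrays of the Cln3 delta ex7/8 comparison moved one way and all arrays of the wild-type comparison the other way, which is why they are listed here. None of the differences between genotypes passed adjustment in limma. The Y-linked *Eif2s3y*, *Uty* and *Kdm5d* differed between genotypes by 18.16, 16.32 and 11.01 log2 units (limma adjusted p = 0.0990, 0.0955 and 0.121). *Cryaa* of the lens differed by 9.01 ± 2.32 (SE), with light effects of 3.50 in Cln3 delta ex7/8 and −5.51 in wild-type retinas. For *Ly6c2*, a monocyte gene, the difference was 3.45 ± 0.68 (SE), with light effects of 2.96 in the mutant and −0.49 in the wild type (limma adjusted p = 0.151). *Dusp1*, a phosphatase induced by stress, differed by 2.44 ± 0.50 (SE), with 1.32 and −1.12. *P2ry12* of resting microglia differed by 2.08 and *Opn1mw* of cones by 1.02.

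Outside the main comparison, light plus minocycline array 2 had a mean of 11.50 over 16 pigment epithelium genes, above 8.81 and 8.50 on the no light arrays.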

How the results depend on the processing

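Under a 2-fold minimum 745 genes were called higher and 1127 lower. A fit of only the groups compared, without the spread of the other arrays, called 1844 higher and 2932 lower. The methods' t-test called 2 and 6 after Benjamini-Hochberg adjustment (1882 and 2771 unadjusted), and Y-linked transcripts as a covariate left 0 and 0 (1253 and 1797 unadjusted). Leaving out 1 of the 4 arrays gave 366 to 518 higher, 504 to 851 lower, and at 4-fold 160 to 179 higher and 37 to 80 lower, with 80 without no light array 2. For genotype by light, with 0 called, a fit over only the groups compared called 68 above and 11 below 0, the methods' t-test 3 above, trend and robust 3 above, and leaving out an array 0 to 1 above and 0 to 9 below. The cause of these changes was not tested. The 92 genes named here that were called higher and the 59 called lower all lost the call with the covariate and with the methods' t-test. Trend and robust took it from 18 and 0 of them, quantile normalization from 2 and 11, and the loss of 1 array left 45 to 56 and 29 to 35 called.

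Some log2 differences changed sign. After quantile normalization *Cd3e* was at −0.065, *Il1b* −0.024, *Opn1sw* 0.030 and *Vim* 0.10, and after median centring *Ifnb1* at 0.015. With the covariate *Ccl2* was at −0.06, *Cln3* −0.14, *Crx* 0.12, *Cryaa* −2.92, *Dusp1* −0.05, *Eif2s3y* −0.20, *Gfap* −0.15, *Ifnb1* 0.45, *Kdm5d* −0.72, *Oasl2* −0.15, *Opn1mw* −0.33, *P2ry12* −0.55 and *Tlr2* −0.14. Leaving out an array gave −0.05 to 0.24 for *Cd3e*, −0.31 to 0.55 for *Gfap*, −0.09 to 0.47 for *Rbpms*, −0.20 to 0.02 for *Opn1sw* and −0.36 to 0.24 for *Vim*. No paired analysis was possible because the labels carry no replicate numbers that the groups share. Arrays give no counts, and 2 per group limit the precision.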

Other observations

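Gene groups outside the main account moved little. Of 19 clock genes 3 were called higher and 2 lower in light plus NaCl retinas, beside 6.57% and 11% of all genes. *Per3*, a repressor of the clock, rose by 1.07, and *Tef*, a clock output factor, read 4.58 and 4.19 in light plus NaCl retinas, against 5.65 and 5.29 in no light retinas. Of 23 vessel and adhesion genes 2 were called higher: the endothelial receptor *Eng*, at 8.36 and 7.68 with light and 6.30 and 6.15 without, and the junction gene *Cdh5*, which rose by 0.89.

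Of 23 proliferation genes 2 were called higher, *Plk1* and *Mki67*, which rose by 1.03 and 0.83, and of 28 matrix genes 3 rose, among them *Thbs1* (7.40 and 7.24 with light, 5.43 and 5.90 without). No member of the vessel, proliferation and matrix lists was called lower, though each list held members with negative differences. When 1 array was left out, 1 clock, 1 or 2 vessel, 0 to 3 proliferation and 0 matrix genes were called higher. Markers of neighbouring tissue gave 1 call higher each for lens and pigment epithelium, 2 lower for pigment epithelium, and 1 lower of 30 for muscle. Without no light array 2, so that array 1 alone stood for the unexposed group, 17 muscle genes were called lower.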
